A study of Mus musculus with 4 samples.

Results

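The cells described here are the *Pi16* adventitial fibroblast progenitors of mouse muscle, selected on raw UMIs (unique molecular identifiers, 1 per captured transcript) in all 4 libraries: at least 1 UMI of *Pdgfra*, at least 2 of *Pi16* and 0 of *Ptprc*, in cells with at most 10% of UMIs from mitochondrial genes. The rule chose 7417 members of 62665 cells (11.8%), and 33.6% of the 22104 cells that met the *Pdgfra*, *Ptprc* and mitochondrial conditions, here called *Pdgfra*+ cells. *Pi16* encodes a secreted peptidase inhibitor and marks fibroblasts of the adventitia, the connective tissue sheath around vessels. Such cells carry *Dpp4*, *Cd55*, *Sema3c* and *Ly6a* and are regarded as a reservoir from which more specialised fibroblasts arise. The other large fibroblast state of muscle lies between fibres, contacts basement membrane and carries *Col15a1*, *Smoc2* and *Lpl*.

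The study followed heterotopic ossification, the formation of bone in soft tissue, after injury of tibial muscle by cardiotoxin, a venom toxin that destroys muscle fibres. By the labels all mice, the Uninjured group included, were *Nse-Bmp4* animals on a C57BL/6 background aged 6 to 8 weeks, in which the rat neuron-specific enolase promoter drives a mouse *Bmp4* cDNA. Muscle was digested with collagenase, no sort is named in the labels, and 3 muscles were pooled into 1 library for each of 4 groups: Uninjured, and 1 day, 3 days and 7 days after the injection (dpi, days post injury). With 1 library per time point no test between time points was possible, and intervals beside single values (95%, exact) cover counting error only.

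The libraries held 12031, 11722, 15160 and 23752 cells and 112317902, 91146335, 116346301 and 129007669 UMIs in all, with a median of 8629, 5561.5, 4214 and 3083 UMIs per cell, at Uninjured, 1, 3 and 7 dpi, the order kept for every list of 4 values below. The members numbered 3911, 1338, 1346 and 822, with 46393028, 14485241, 14858897 and 9676321 UMIs in all and a median of 10140, 9413.5, 7571.5 and 9528.5 UMIs per cell. The members of any pair of libraries shared 0 to 2 barcodes. A level in CPM is the number of UMIs of a gene in every 1000000 UMIs summed over all members of a library.

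Some libraries stood apart before any comparison. *Ifi202b*, an interferon-inducible gene, was at 0, 129, 0.0673 and 0 CPM in the members and at 0, 84.6, 0 and 0 CPM in the leukocytes (cells with *Ptprc* and no *Pdgfra* UMI) of the same libraries, so that it was nearly confined to the 1 dpi library in both cell groups. Whether the animals of that library differed from the others in genetic background was not tested, and with 1 library per time such a difference and the time after injury cannot be told apart, in the interferon-stimulated genes described below as elsewhere. *Gm42418*, a gene model that overlaps ribosomal RNA, was at 11277, 47468.5, 22260 and 18821.5 CPM in the members. *Xist* was at 0.0647, 0.0690, 0 and 0 CPM while the Y-linked *Ddx3y* was at 79.3, 90.1, 76.7 and 54.8 CPM. The median mitochondrial share of the members was 1.59, 3.40, 2.96 and 2.84%.

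The members carried the markers of the label that the rule had not used. In cells thinned to 2000 UMIs, a UMI of *Sema3c* was found in 45.3, 48.5, 39.4 and 31.5% of members and 1.02, 0.969, 0.979 and 6.06% of leukocytes, of *Cd55* in 47.9, 47.4, 35.8 and 21.3% and 11.5, 15.9, 5.47 and 4.98%, and of *Efhd1* in 28.6, 27.9, 20.3 and 8.31% and 1.11, 0.711, 0.662 and 0.770%. All 3 were more frequent in the members of every library. In the members of all 4 libraries the 7 fibroblast lineage markers not used by the rule summed to 48242, 32011.5, 32333 and 42896 CPM, against 1963, 972, 1968 and 18373 CPM in leukocytes, where 7 dpi was highest. The 8 leukocyte markers summed to 50.4, 224, 189 and 115 CPM in the members and 30385, 33478.5, 21975 and 9724 CPM in leukocytes, with none of them at 0, and their most counted gene in the members was *Cd74*, except at 1 dpi where it was *S100a9*. *Tyrobp*, a leukocyte adaptor, had a UMI in 1.07, 10.2, 6.69 and 6.08% of members. *Rgs5*, a pericyte gene, had one in 0.639, 0.448, 0.594 and 8.76%, and the 5 mural markers summed to 24.9, 6.97, 13.1 and 94.8 CPM. Among the members 10.1, 3.89, 4.23 and 4.87% had one of the highest Scrublet doublet scores of their library and 5.06, 15.2, 11.3 and 18.6% held UMIs of other cell types' defining markers. The part of free RNA and of doublets in these values was not tested. Leukocytes were set by *Ptprc* and *Pdgfra* UMIs alone, so other cells with a *Ptprc* UMI can be among them. The 31 matrix and contractile genes listed summed to 3764, 1658, 3385 and 34066 CPM in them. At 7 dpi their leukocyte markers were thus lowest and these genes highest, and what other cells the group then held was not tested.

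Members made up a smaller share of *Pdgfra*+ cells in each later library. Their share was 48.1% (47.0 to 49.1), 39.3% (37.6 to 40.9), 25.9% (24.7 to 27.1) and 15.3% (14.4 to 16.3). After every cell was thinned to 2000 UMIs before the rule was applied, which left out 556, 968, 3045 and 6906 shallower cells, the shares were 28.9%, 22.7%, 17.2% and 6.72%, in the same order. The intervals of neighbouring libraries did not overlap in either series. Such intervals cover counting error within a library only, so their separation is no test of a difference between time points. These shares rest on the rule itself and are given as a description. A smaller share can follow from fewer such cells, from less *Pi16* RNA per cell or from more of the other cells, and these cannot be told apart here.

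The background of the rule was read in leukocytes as a whole, although *PI16* is known from some T cells. At least 2 *Pi16* UMIs were found in 3.76, 5.47, 2.97 and 2.69% of leukocytes, whose median depth was 4097, 4835, 3547.5 and 2468.5 UMIs against 10140, 9413.5, 7571.5 and 9528.5 in the members. In leukocytes thinned to 2000 UMIs the share was 2.64, 1.59, 1.16 and 1.16%. At least 10 were found in 0.817, 0.359, 0.286 and 0.0649% of unthinned leukocytes. The members held a median of 19, 10, 8 and 4 *Pi16* UMIs, and 65.5, 50.9, 43.0 and 20.1% of them had 10 or more. *Pi16* itself was at 1372, 663, 293 and 139.5 CPM over all *Pdgfra*+ cells, against 86.0, 49.8, 46.5 and 42.2 CPM in leukocytes. The members of the 7 dpi library thus lay closest to the threshold and 30.5% of them had exactly 2 UMIs, against 11.2% in Uninjured.

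**Figure D1:**
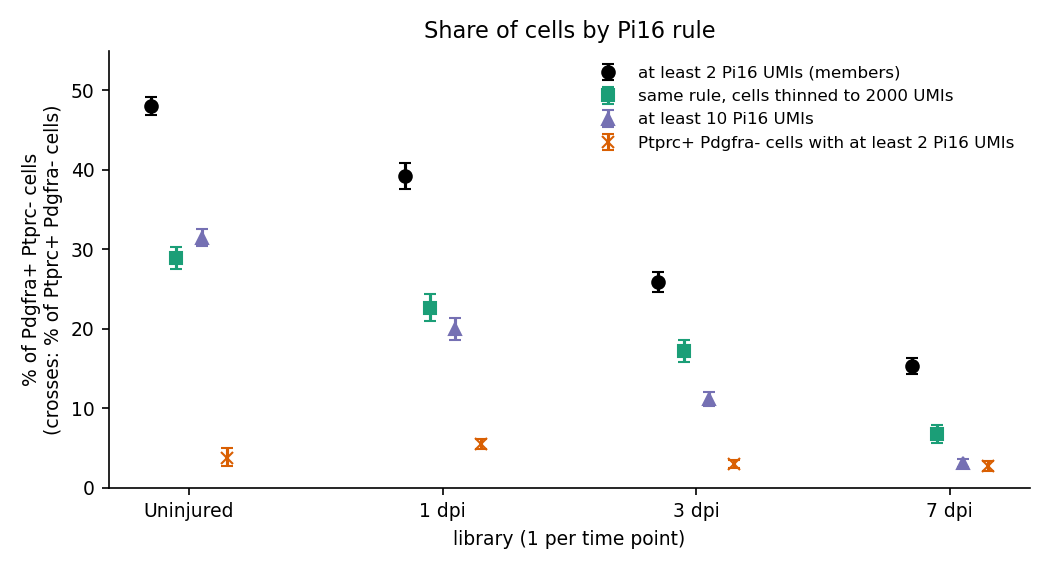
Share of cells meeting the *Pi16* rule in each library, with exact 95% binomial intervals. Circles, squares and triangles are percentages of *Pdgfra*+ cells under 3 forms of the rule, crosses are the percentage of leukocytes with at least 2 *Pi16* UMIs. All 3 forms were highest in Uninjured and lowest at 7 dpi.

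Cells just inside the threshold had higher levels of 3 other markers than those just outside it, and lower ones than cells with many *Pi16* UMIs. Cells with exactly 2 *Pi16* UMIs numbered 439, 182, 248 and 251 and cells with exactly 1 numbered 1008, 409, 731 and 758. *Dpp4*, a cell surface peptidase, was at 47.1, 42.5, 22.2 and 21.8 CPM in cells with 1 *Pi16* UMI and at 64.9, 64.2, 41.9 and 31.7 CPM in cells with 2. *Efhd1* was at 21.6, 37.7, 14.8 and 11.6 CPM with 1 and 32.3, 58.3, 44.1 and 16.8 CPM with 2, and *Cd55* at 144, 121, 46.7 and 40.5 CPM with 1 and 148, 164, 86.4 and 65.9 CPM with 2. As a ratio of the levels at 2 and at 1, the step among these 3 genes was widest for *Efhd1* at 3 dpi and narrowest for *Cd55* in Uninjured. In cells with 10 or more *Pi16* UMIs *Dpp4* was at 293, 296, 207 and 138 CPM. The summed level of the 31 other adventitial progenitor genes was higher in the cells with 10 or more *Pi16* UMIs than in those with 2 in every library, at 31542 against 14445 CPM in Uninjured and 22406 against 9781 CPM at 7 dpi. The interstitial fibroblast genes took the opposite course in Uninjured, from 13642 to 3564 CPM, but not at 7 dpi, where they were at 2571 and 4281 CPM.

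**Figure D2:**
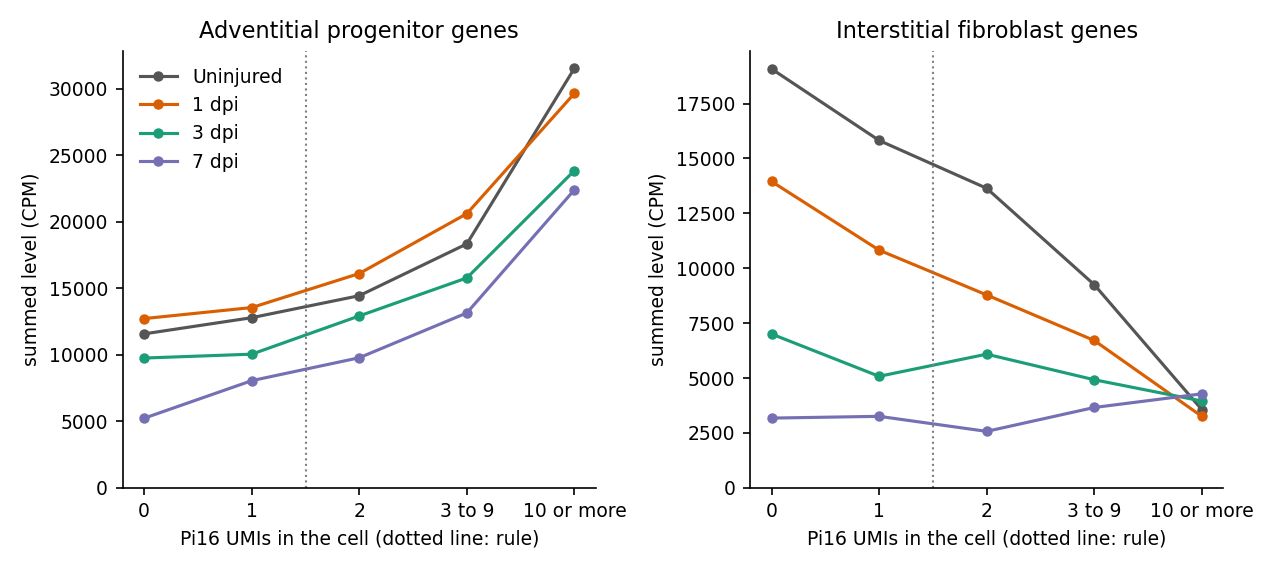
Summed level of the adventitial progenitor genes without *Pi16* (left) and of the interstitial fibroblast genes (right), in CPM, in *Pdgfra*+ cells grouped by their *Pi16* UMIs; each line is 1 library and the dotted line marks the rule. The adventitial genes climb with *Pi16* in all 4 libraries, and the interstitial genes fall with it in Uninjured and at 1 dpi.

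The members were next compared with *Pi16*-negative cells, the *Pdgfra*+ cells with 0 *Pi16* UMIs, which numbered 3220, 1661, 3122 and 3778. UMIs were summed per library and cell group, and edgeR's quasi-likelihood test was run with library as a block. The 4 libraries served as the replicates but are different time points, so the residual spread also holds differences between time points. Of 15008 genes tested, 693 were higher in the members and 484 lower at an adjusted p under 0.05, and these are 4.62% and 3.22% of the genes. Of the 31 adventitial progenitor genes other than *Pi16*, 27 were higher and the others did not pass the test, with a median log2 fold change of 1.52 against -0.021 over all genes tested. The list was written from known markers of these cells, so its direction is no independent evidence. Against *Pi16*-negative cells drawn to match the members' UMIs per cell, 580 genes were higher and 404 lower. The number of calls moved with the library left out: without the 1 dpi library 225 genes were called in all, without the 3 dpi library 409, without the Uninjured library 455 and without the 7 dpi library 1460, and 15 of the 27 adventitial calls were made in every one of these fits (15 of them without 1 dpi).

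*Dpp4* was at 227, 209, 124 and 64.2 CPM in the members and at 30.2, 27.8, 19.1 and 8.27 CPM in the *Pi16*-negative cells (log2 fold change 2.90 ± 0.069 SE, adjusted p = 5.1e-05, edgeR). *Efhd1*, a calcium-binding protein of mitochondria, was at 168, 163, 80.5 and 41.5 CPM against 15.8, 19.8, 12.4 and 4.32 CPM (log2 fold change 3.14 ± 0.13, adjusted p = 3.4e-04, edgeR). In both genes the lowest member value, at 7 dpi, lay above the highest *Pi16*-negative value. *Sema3c*, a secreted guidance cue, was at 356, 409, 252 and 216 CPM against 49.2, 67.7, 57.1 and 56.7 CPM (log2 fold change 2.42 ± 0.16, adjusted p = 0.0018, edgeR). *Cd55*, which speeds the decay of complement convertases, was at 407, 413, 200.5 and 140.0 CPM against 118, 92.6, 38.8 and 24.0 CPM (log2 fold change 2.25 ± 0.13, adjusted p = 0.0010, edgeR). All 4 were higher in the members in each library. The surface protein gene *Cd248* (log2 fold change 1.66 ± 0.16, adjusted p = 0.0038, edgeR) and *Creb5*, a transcription factor gene (log2 fold change 1.12 ± 0.080, adjusted p = 0.0018, edgeR), took the same direction. The 4 genes of the list that did not pass were *Ly6a*, *Tnxb*, *Clec3b* and *Tubb3*. *Ly6a*, which encodes the stem cell antigen Sca-1, was at 2423, 4386, 2322 and 1788 CPM in the members and 1342, 3075, 1561 and 526 CPM in the *Pi16*-negative cells (adjusted p = 0.051, edgeR).

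**Figure D3:**
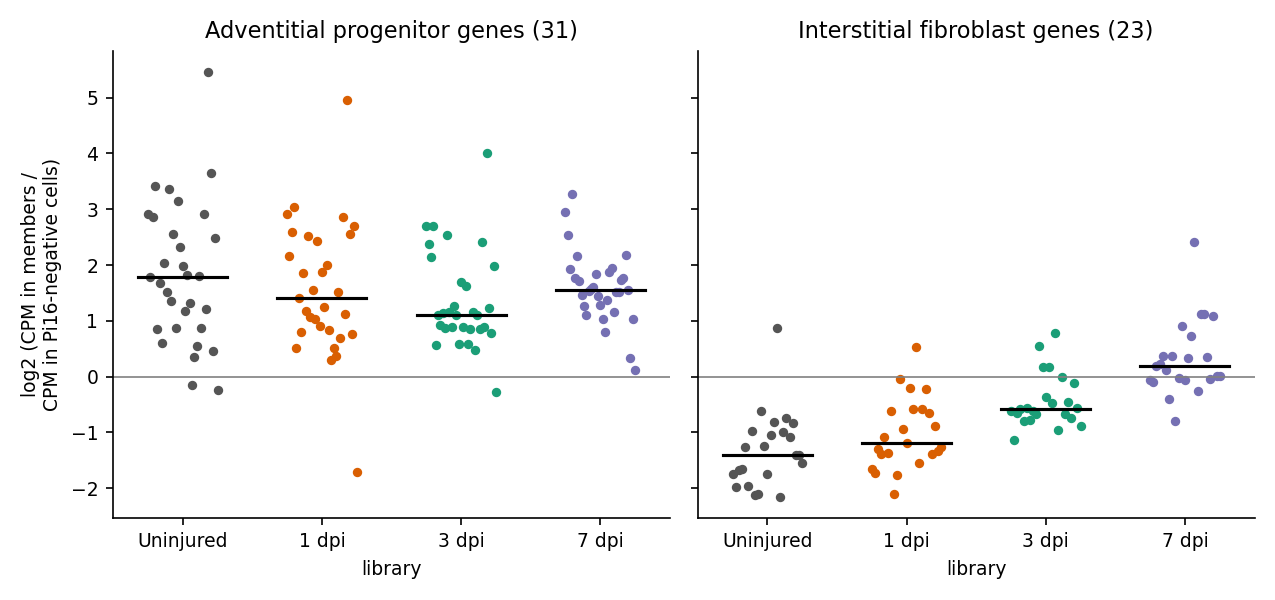
Log2 ratio of CPM in the members to CPM in *Pi16*-negative cells, 1 point per gene and library, for the 31 adventitial progenitor genes (left) and 23 interstitial fibroblast genes (right, without *Bst1*, which had too few UMIs); bars are medians. The adventitial genes lie mostly above 0 in all libraries, and the interstitial genes move from below 0 in Uninjured to around 0 at 7 dpi.

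Genes outside these lists were named by the size of the fold change among calls with the same direction in all 4 libraries. That rule returned mostly genes of a few CPM (*Krt23*, *Cldn3*, *Krt20* and *Akr1c18* among the higher, *Hpca*, *Gria1* and *Grin2b* among the lower), so the same ranking was repeated among genes averaging at least 20 CPM, a limit set after the values were seen. It was led by *Krtdap* and *Dmkn*, genes of secreted proteins best known from keratinocytes. *Krtdap* was at 171, 138, 20.7 and 13.2 CPM against 1.11, 5.77, 2.28 and 1.34 CPM (log2 fold change 4.64 ± 0.66, adjusted p = 0.013, edgeR), with UMIs in 1103 of the Uninjured members and 0.880% of them in the highest cell. It lost the call without the 1 dpi library, and *Dmkn* lost it without Uninjured, 1 or 3 dpi. Of 12 keratinocyte genes listed after these values were seen, 6 of 11 tested were higher in the members. That list was prompted by the ranking, so its count is no independent evidence. Their defining keratins were near 0 in the same cells, with *Krt5* at 0, 0, 5.11 and 0 CPM and *Krt14* at 0, 0, 3.16 and 0.310 CPM.

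Of the other genes in this ranking, *Edn1*, *Igfbp5* and *Wnt2* are given as examples and not as a tested group. *Edn1*, the precursor of the vasoconstrictor endothelin-1, was at 137, 117, 74.4 and 26.9 CPM against 16.1, 14.8, 11.7 and 3.57 CPM (log2 fold change 2.95 ± 0.088, adjusted p = 1.2e-04, edgeR). *Igfbp5*, an insulin-like growth factor binding protein, was at 1853, 1278, 871 and 971 CPM against 181, 222, 149 and 449 CPM (log2 fold change 2.43 ± 0.35, adjusted p = 0.014, edgeR). *Wnt2*, a Wnt ligand, was at 56.2, 25.9, 19.9 and 87.9 CPM against 6.36, 4.82, 9.27 and 24.6 CPM (log2 fold change 2.15 ± 0.31, adjusted p = 0.014, edgeR). The *Igfbp5* call was lost without 1 or 3 dpi and the *Wnt2* call without 1 dpi. *Efemp1*, an elastic fibre glycoprotein gene (log2 fold change 2.16 ± 0.11, adjusted p = 7.8e-04, edgeR), *Ackr1*, an atypical chemokine receptor gene (log2 fold change 2.57 ± 0.18, adjusted p = 0.0018, edgeR), and *Limch1*, an actomyosin regulator gene (log2 fold change 2.56 ± 0.20, adjusted p = 0.0020, edgeR), were also higher in every library. Of the 20 highest-ranked genes, 12 kept the call whichever library was left out, and all 20 kept it against *Pi16*-negative cells drawn to match the members' UMIs per cell.

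Lower genes in the members included several of cartilage and bone. Of the 25 tested genes of the cartilage, bone and tendon list, 6 were lower and the others did not pass: *Spp1*, *Alpl*, *Sox9*, *Runx2*, *Col9a1* and *Col10a1*. *Alpl*, the alkaline phosphatase of mineralising cells, was at 11.5, 14.7, 7.13 and 58.9 CPM against 39.6, 62.6, 12.2 and 190.1 CPM (log2 fold change -1.59 ± 0.20, adjusted p = 0.0087, edgeR). *Runx2*, the regulator of osteoblast fate, was at 6.77, 2.62, 26.7 and 37.8 CPM against 13.1, 12.4, 46.5 and 75.9 CPM (log2 fold change -1.09 ± 0.21, adjusted p = 0.030, edgeR). *Sox9*, the regulator of chondrocyte fate, was at 15.9, 20.2, 26.2 and 69.6 CPM against 51.8, 46.8, 41.0 and 149 CPM (log2 fold change -1.13 ± 0.16, adjusted p = 0.013, edgeR). *Alpl* kept its call without any of the 4 libraries in turn, and the other 5 lost theirs in at least 1 of these fits. *Spp1*, a bone matrix and repair gene, was at 1.53, 15.2, 14.3 and 69.4 CPM against 25.1, 63.9, 41.6 and 259 CPM (log2 fold change -2.25 ± 0.36, adjusted p = 0.019, edgeR) and led the 20 lower genes ranked by the 20 CPM rule, of which 4 kept the call whichever library was left out. *Tnn*, *Sorl1*, *Nmb* and *Apod* were also among these 20 and lost it in at least 1 fit.

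Among interferon-stimulated genes 6 of 19 were higher, *Ifi27l2a* with 1123, 1942, 685 and 591 CPM against 314, 492, 357 and 169.8 CPM (log2 fold change 1.68 ± 0.18, adjusted p = 0.0053, edgeR). Among matrix and contractile genes 4 of 31 were higher (*Col14a1*, *Fbn1*, *Loxl1* and *Prg4*) and 5 lower (*Acta2*, *Tagln*, *Tnc*, *Lrrc15* and *Thbs1*). *Col14a1*, a fibril-associated collagen gene, was at 591, 323, 539.7 and 873 CPM against 238, 97.3, 300.4 and 460.1 CPM (log2 fold change 1.24 ± 0.15, adjusted p = 0.0087, edgeR). Among secreted growth factors and Wnt regulators 6 of 27 were higher (*Fgf2*, *Vegfa*, *Wnt2*, *Wnt11*, *Sfrp2* and *Sfrp4*) and 5 lower (*Ptn*, *Mdk*, *Sfrp1*, *Dkk3* and *Tgfb1*). Genes of both lists thus lay on either side of the *Pi16*-negative cells. Among adipogenic genes 5 of 14 were lower and *Zfp423* was higher. None of the 21 cell cycle genes passed edgeR's test, with 1 at an unadjusted p under 0.05 and 0 called by DESeq2.

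Of cytokines and chemokines 4 of 25 were higher (*Cxcl13*, *Ccl8*, *Il11* and *Il33*) and *Cxcl12* was lower, and of complement genes *C3*, *C4b* and *Cd55* were higher among 10. Of BMP pathway genes 3 of 21 were higher (*Bmp7*, *Chrdl1* and *Fstl1*) and *Acvr1* was lower. *Bmp7* is a ligand, *Chrdl1* encodes an antagonist of such ligands and *Acvr1* a receptor. Of the NF-kB feedback and acute phase genes 2 of 23 were higher, of immediate early genes 2 of 21 were lower, and of the circadian clock genes *Arntl* was higher and *Hlf* lower among 16. Of all genes tested 4.62% were higher and 3.22% lower, so 1 or 2 calls in a list are given as a description only. Of the interstitial fibroblast genes 2 of 24 passed, *Penk* and *Apod*, both lower, with a list median of -0.75. At an unadjusted p under 0.05 there were 15 of them, and DESeq2 called 13, so that this count depended on the tool. The difference also varied between libraries, with a log2 ratio of the list's sums in members to *Pi16*-negative cells of -1.68, -1.43, -0.55 and 0.13. Whichever library was left out, 1 of the 6 interferon calls (*Ifi27l2a*), 2 of the 9 matrix calls (*Col14a1* and *Lrrc15*) and 3 of the 11 growth factor calls (*Fgf2*, *Wnt11* and *Ptn*) were kept. Likewise 2 of the 3 complement calls, 1 of the 5 cytokine calls and 1 of the 2 immediate early calls were kept, and none of the interstitial, adipogenic, BMP, NF-kB or clock calls. Without 3 dpi none of the calls of these last 5 lists remained, and without 1 dpi 1 did, an adipogenic one. No adipogenic, NF-kB or clock call remained without Uninjured. In members with at least 10 *Pi16* UMIs 1 of the 6 adipogenic calls remained.

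Against the *Col15a1* cells, the *Pi16*-negative cells with at least 2 *Col15a1* UMIs (2697, 1139, 1213 and 594 cells), the differences were wider. Of 14091 genes, 1397 were higher in the members (9.91%) and 1517 lower (10.8%). 29 of 31 adventitial genes were higher and 19 of 22 interstitial genes lower, *C7* being the only one of these higher. *Col15a1* UMIs chose the comparison cells, so the interstitial count is a description. *Cxcl14*, a chemokine, was lower, at 1035, 734, 1315 and 594 CPM in the members and 5230, 3984, 3328 and 1595 CPM in the *Col15a1* cells (log2 fold change -1.83 ± 0.21, adjusted p = 0.0023, edgeR). *Gap43*, a growth cone protein gene, was higher, at 53.3, 27.2, 28.6 and 91.9 CPM against 0.796, 1.28, 1.74 and 15.6 CPM (log2 fold change 4.12 ± 0.48, adjusted p = 0.0025, edgeR). *Bmp4* was lower in the members, at 80.2, 62.3, 49.9 and 33.5 CPM against 172, 134, 99.4 and 42.4 CPM (log2 fold change -0.86 ± 0.12, adjusted p = 0.0047, edgeR), and these counts do not separate the transgene from the native gene here. Of 21 immediate early genes 14 were lower in the members and the others did not pass. Of the 21 cell cycle genes 9 were higher and DESeq2 called 9, but 0 of the edgeR calls remained in members with at least 10 *Pi16* UMIs, 3 against cells matched on UMIs and 1 in every fit that left out a library. Without the Uninjured library 1341 genes were called in all, without 1 dpi 1401 and without 3 dpi 1586.

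Cells with *Gdf10* and *C7* UMIs but no *Pi16*, another fibroblast state, numbered 176, 126, 151 and 6, so 7 dpi was left out. Of 12896 genes, 649 were higher in the members (5.03%) and 664 lower (5.15%). 24 of 31 adventitial genes were higher. *Aldh1a3*, a retinoic acid synthase gene, was at 102, 81.1 and 49.9 CPM against 3.98, 4.15 and 5.97 CPM (log2 fold change 4.09 ± 0.24, adjusted p = 2.7e-07, edgeR). *Apoe* (log2 fold change -2.51 ± 0.17, adjusted p = 7.1e-07, edgeR), *Gas6*, the ligand of *Axl* (log2 fold change -2.62 ± 0.14, adjusted p = 1.6e-07, edgeR), and 9 of 10 complement genes were lower. UMIs of *C7*, itself a complement gene, helped choose the comparison cells, so the complement count is a description. Of 19 BMP pathway genes 10 were lower and 3 higher. Without the Uninjured library 6 of the 10 complement calls and 8 of the 13 BMP calls remained. Of the 21 cell cycle genes 12 were higher, but DESeq2 called 2, and 3 of the edgeR calls remained in members with at least 10 *Pi16* UMIs and 1 against cells matched on UMIs. Among the 20 largest increases of genes averaging at least 20 CPM, *Krtdap*, *Dmkn*, *Efhd1*, *Islr2* and *Cmah*, the last a sialic acid hydroxylase gene, stood in all 3 contrasts. The contrasts share the members, and all comparison cells lacked *Pi16* UMIs, so this overlap is no independent evidence. Against *Pi16*-negative cells *Cmah* and *Islr2*, like *Krtdap* and *Dmkn*, lost the call without the 1 dpi library.

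Members also differed among themselves. With each member thinned to 2000 UMIs, the 2230 genes with enough UMIs were ranked by the median over libraries of their variance divided by their mean, which is 1 where only counting error acts. The 10 highest were *Gm42418*, *Malat1*, *Gsn*, *Cxcl14*, *Mgp*, *Igfbp5*, *Dcn*, *Col3a1*, *Prg4* and *Thbs4*. *Gsn*, an actin-severing protein gene, had a ratio of 10.6, 13.2, 16.6 and 12.8. *Prg4*, which encodes lubricin, had 8.74, 10.1, 8.81 and 2.60, with a UMI in 12.0, 40.5, 54.6 and 12.8% of thinned members and 22.7, 58.7, 69.2 and 33.0% without thinning. *Mgp*, an inhibitor of calcification, had 9.67, 14.0, 14.4 and 8.03. No class of genes was tested among the 2230. Some of the 10 were also abundant, with *Gsn* and *Dcn* at a mean of 28.4 and 27.4 UMIs per thinned member in Uninjured.

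For the course after injury, each dpi library was set against the same Uninjured library, so that the 3 comparisons share it, and a gene was counted where its CPM ratio reached 2 in either direction, with counts floored at 3 UMIs, among genes with a mean of at least 20 CPM over the pair. A gene under 20 CPM in 1 library of the pair is counted only through the other, so counts of such genes are in part set by this filter. At 1 dpi 192 of 5965 genes were higher (3.22%) and 113 lower (1.89%). At 3 dpi 311 of 5901 were higher (5.27%) and 193 lower (3.27%). These 3 dpi counts were 233 and 115 with the mean of the CPM of each cell, and 270 and 142 in members thinned to 2000 UMIs. At 7 dpi 303 of 5782 were higher (5.24%) and 330 lower (5.71%). With TMM factors the splits of higher and lower became 111 and 204, 195 and 331, and 253 and 451, since they moved the median log2 ratio of all genes from 0.11, 0.11 and 0.034 to -0.11, -0.079 and -0.10 at 1, 3 and 7 dpi. Of the higher genes 77.1, 80.4 and 81.2% at 1, 3 and 7 dpi were at least 2-fold higher in the *Pi16*-negative cells of the same libraries too, as were 4.41, 9.02 and 7.14% of all genes counted. Of the lower genes 65.5, 78.2 and 82.7% were at least 2-fold lower there, as were 1.89, 6.34 and 10.00% of all genes counted.

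**Figure D4:**
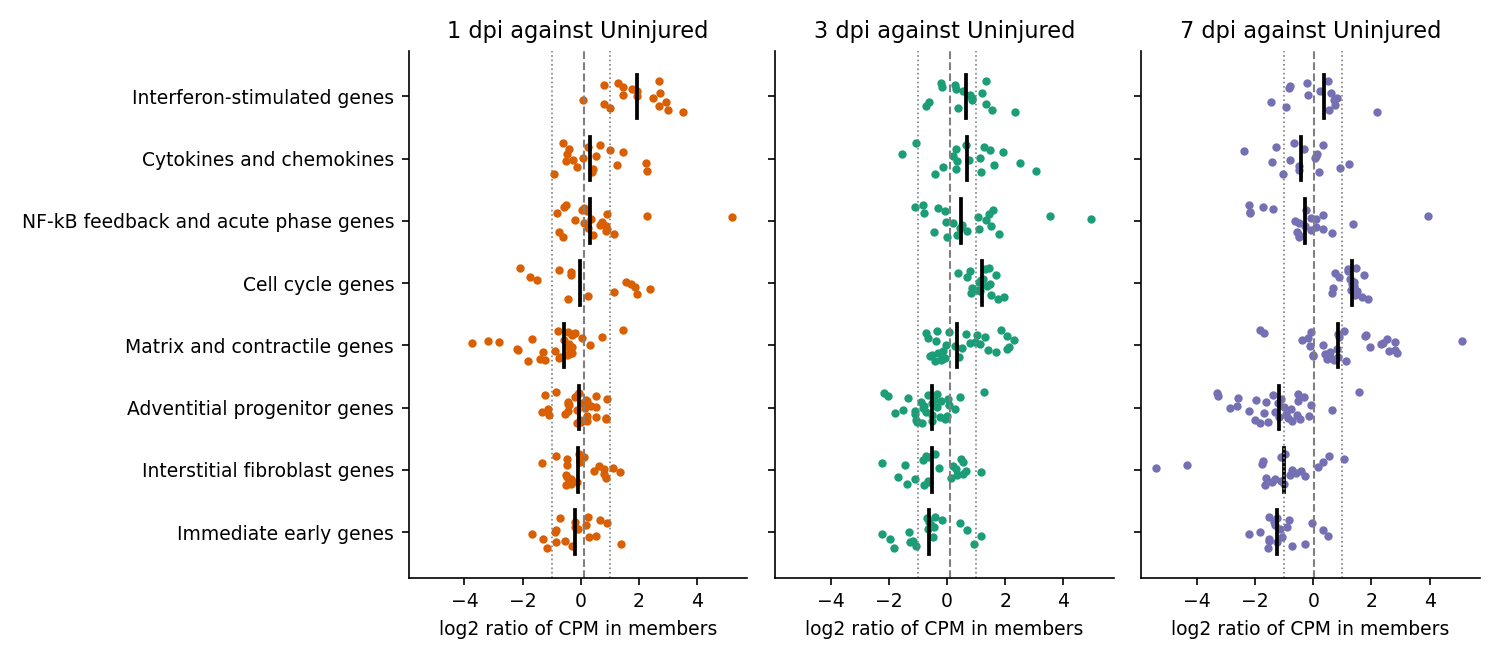
Log2 ratio of CPM in the members at 1, 3 and 7 dpi to CPM in the Uninjured members, 1 point per gene, by gene list; black bars are list medians, the dashed line is the median of all genes counted and the dotted lines mark 2-fold. Interferon-stimulated genes lie furthest to the right at 1 dpi, and adventitial progenitor genes shift to the left by 7 dpi.

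At 1 dpi the interferon-stimulated genes were the list furthest above Uninjured. Of these genes, which encode antiviral effectors and their regulators, 13 of 17 measured were at least 2-fold higher and 0 at least 2-fold lower, with a median log2 ratio of 1.92 against 0.11 over all genes (1.70 with TMM factors). *Isg15*, a ubiquitin-like protein gene, was at 23.7, 273, 121 and 108 CPM, 11.5-fold higher (10.8 to 12.3) at 1 dpi. *Irf7*, a regulator of interferon genes, was at 30.9, 237, 78.3 and 52.2 CPM, 7.68-fold higher (7.22 to 8.17). *Bst2*, which encodes tetherin, was at 145, 804, 267 and 241 CPM, 5.53-fold higher (5.37 to 5.70). In these 3 genes 1 dpi was the highest library and Uninjured the lowest. *Ifit1* followed, at 21.1, 168, 62.2 and 30.6 CPM. At 3 dpi 5 of 16 were at least 2-fold higher and 0 lower. By 7 dpi 1 gene of 14 measured, *Isg15*, was still at least 2-fold higher and 1, *Irf1*, was lower. In members with at least 10 *Pi16* UMIs the count at 7 dpi was 6 of 16, with a median log2 ratio of 0.77 against 0.36 in all members. The list summed to 2075, 5096, 2056 and 1515 CPM in the members, 1203, 3194.5, 1579 and 709 CPM in *Pi16*-negative cells and 2125, 4858, 2186 and 1596 CPM in leukocytes, so 1 dpi was highest in all 3 cell groups.

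The promoters of these genes were read because the genes moved together. Sequences were taken from RefSeq (GRCm38.p6) and the 250 bases before each start were searched on both strands for GAAANNGAAA (TTTCNNTTTC on the other strand), the letters of the element bound by interferon-activated factors. It was present in 6 of the 9 genes at least 2-fold higher at 1 dpi that had an entry, in 1 of 4 others of the list, in 2 of 25 adventitial progenitor genes and in 3.46% of all 27025 genes of the table. A match is a description of the letters and not of binding. The 9 genes come from a list of genes known to respond to interferon, so their share of matches is no independent evidence. The sets of 9 and 4 genes are too small to compare. The 4 promoters with more than 1 match are shown, 5′ to 3′ on the strand of the gene and ending at the base before its start, with the matches in capitals (overlapping matches run together).
*Isg15* (chr4:156200819-156201068, minus strand): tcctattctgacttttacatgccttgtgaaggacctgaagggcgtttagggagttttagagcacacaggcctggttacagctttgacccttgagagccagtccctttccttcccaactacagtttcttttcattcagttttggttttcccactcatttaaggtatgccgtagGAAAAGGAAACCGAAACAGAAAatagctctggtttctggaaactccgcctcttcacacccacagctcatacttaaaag
*Ifit1* (chr19:34640639-34640888, plus strand): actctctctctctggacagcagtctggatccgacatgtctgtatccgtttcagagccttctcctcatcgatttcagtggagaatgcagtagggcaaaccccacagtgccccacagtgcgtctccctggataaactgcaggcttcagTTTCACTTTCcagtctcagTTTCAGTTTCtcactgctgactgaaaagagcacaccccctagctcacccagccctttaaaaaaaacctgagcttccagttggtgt
*Ifit3* (chr19:34583279-34583528, plus strand): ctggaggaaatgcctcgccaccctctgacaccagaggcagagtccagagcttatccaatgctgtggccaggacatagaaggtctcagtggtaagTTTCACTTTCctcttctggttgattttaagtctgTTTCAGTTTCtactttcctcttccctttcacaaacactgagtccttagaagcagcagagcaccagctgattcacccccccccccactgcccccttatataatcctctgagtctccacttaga
*Bst2* (chr8:71537473-71537722, minus strand): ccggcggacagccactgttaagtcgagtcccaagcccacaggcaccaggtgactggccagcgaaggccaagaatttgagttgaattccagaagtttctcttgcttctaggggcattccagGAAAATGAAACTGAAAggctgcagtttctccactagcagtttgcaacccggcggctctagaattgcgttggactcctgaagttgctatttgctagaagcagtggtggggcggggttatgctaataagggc

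Inflammatory signals were higher at 1 and 3 dpi in part of their lists. Among cytokines and chemokines 5 of 18 measured genes were at least 2-fold higher and 0 at least 2-fold lower at 1 dpi, and 8 and 2 of 18 at 3 dpi. By 7 dpi 1 of 16 was higher and 4 were lower, with a median log2 ratio of -0.41. *Cxcl5*, a neutrophil attractant, was at 27.5, 132, 232 and 19.5 CPM in the members and 0.582, 3.87, 18.0 and 4.04 CPM in leukocytes, 8.40-fold higher (7.88 to 8.97) at 3 dpi than in Uninjured. *Cxcl13*, a B cell attractant, was at 54.6, 260.3, 308 and 20.7 CPM against 0.145, 4.27, 9.90 and 2.39 CPM in leukocytes, 5.64-fold higher (5.37 to 5.92) at 3 dpi. Both genes were back below the Uninjured level at 7 dpi. *Il6* was at 86.0, 174, 237 and 69.0 CPM. *Saa3*, an acute phase protein gene, was at 2.48, 90.8, 75.6 and 38.3 CPM, from 57 cells at 1 dpi. *Ptx3*, a soluble pattern recognition protein gene, was at 273, 351, 696 and 259 CPM, 2.55-fold higher (2.49 to 2.62) at 3 dpi. Of the NF-kB feedback and acute phase genes, 3, 9 and 2 were at least 2-fold higher and 0, 1 and 5 lower among 22, 22 and 21 at 1, 3 and 7 dpi. With a mean CPM of at least 50, 1 of 15 were higher at 1 dpi and 3 of 15 at 3 dpi. The list's sum, led by the metallothionein gene *Mt1*, was highest in Uninjured, at 11537, 9612, 9454 and 4248 CPM. *Cfb*, a component of the alternative complement pathway, was at 81.5, 373, 307 and 204 CPM and *C3* at 1251, 2182, 1386 and 375 CPM.

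Part of the matrix genes were lower at 1 dpi and part were higher later. At 1 dpi 10 of 29 measured matrix and contractile genes were at least 2-fold lower, and *Prg4* was higher. *Col1a1*, the main fibrillar collagen gene, was at 4864, 1388, 3656 and 10751 CPM, 3.504-fold lower (3.45 to 3.56) at 1 dpi and 2.21-fold higher (2.19 to 2.23) at 7 dpi. *Postn*, which encodes the matrix protein periostin, was at 569.9, 127, 1511 and 3433 CPM, 4.48-fold lower (4.28 to 4.70) at 1 dpi and 6.02-fold higher (5.93 to 6.12) at 7 dpi. Both were lowest at 1 dpi and highest at 7 dpi. At 3 dpi 10 of 30 genes were higher and at 7 dpi 13 of 31, where *Dcn* and *Prg4* were at least 2-fold lower. *Lox*, the collagen cross-linking enzyme gene, was at 179, 145, 777 and 696 CPM, and *Cthrc1* at 163, 18.1, 319.5 and 1153 CPM. In leukocytes of the 7 dpi library *Col1a1* was at 7200 CPM and *Postn* at 1436 CPM, against 289 and 29.97 CPM in Uninjured. Leukocytes thus held more UMIs of both genes at 7 dpi. Neither the part of free RNA in the members' level nor that of other cells in the leukocyte group was tested. *Prg4* ran another way, at 458, 1255, 1645 and 129.8 CPM, 3.59-fold higher (3.53 to 3.66) at 3 dpi and 3.53-fold lower (3.33 to 3.74) at 7 dpi. *Acta2*, smooth muscle actin, was at 65.3, 4.90, 144 and 327 CPM but at 63.0, 3.81, 61.8 and 81.0 CPM in members with at least 10 *Pi16* UMIs. The mural markers, at 24.9, 6.97, 13.1 and 94.8 CPM in all members, were likewise lowest at 1 dpi and highest at 7 dpi.

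At 1 dpi 6 of 14 cell cycle genes were at least 2-fold higher, *Pcna* and the helicase genes *Mcm3*, *Mcm4*, *Mcm5*, *Mcm6* and *Mcm7*, and 3 were lower, *Cdk1*, *Birc5* and *Ube2c*. A gene as low in Uninjured as *Mcm3*, at 11.1 CPM, passes the filter on mean CPM only through the higher library. Calls of such genes are largely set by that filter. In members thinned to 2000 UMIs fewer genes were counted at 1 dpi, and 3 of 5 were higher and 0 lower. The same counts were found with the mean of the CPM of each cell. *Pcna*, the polymerase clamp, was at 50.9, 151, 92.7 and 81.1 CPM, 2.96-fold higher (2.79 to 3.14) at 1 dpi. The mitotic *Birc5* was at 40.5, 12.2, 94.9 and 96.9 CPM, 3.32-fold lower (2.84 to 3.89) at 1 dpi and 2.34-fold higher (2.18 to 2.51) at 3 dpi. *Mki67*, the proliferation marker, was at 28.6, 21.2, 96.3 and 104 CPM. At 3 dpi 13 of 18 and at 7 dpi 14 of 18 cell cycle genes were at least 2-fold higher, and none lower. These counts too are in part set by the filter on mean CPM. At 3 dpi the count depended on the choice of cells, with 2 of 11 in members with at least 10 *Pi16* UMIs. *Mcm3*, *Mcm6* and *Mcm7* were at least 2-fold higher at all 3 times, *Mcm3* at 11.1, 42.7, 31.6 and 29.8 CPM. In cells thinned to 2000 UMIs, 2.09, 3.87, 10.1 and 15.2% of members and 0.980, 2.02, 12.8 and 17.0% of *Pi16*-negative cells had a UMI of *Mki67* or *Top2a*. In leukocytes *Mki67* alone reached 4.34, 6.50, 14.98 and 10.3% against 1.65, 1.75, 5.85 and 10.2% in members.

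Part of the adventitial progenitor genes were lower in the members of the later libraries. Their sum was 26687, 24727, 18441 and 14118 CPM in the members and 11575, 12724, 9757 and 5234 CPM in *Pi16*-negative cells. The log2 ratio of members to *Pi16*-negative cells was 1.21, 0.96, 0.92 and 1.43, so the lower sum at 7 dpi was not particular to the members. At 1, 3 and 7 dpi 4 of 30, 9 of 31 and 17 of 31 measured genes were at least 2-fold lower, with median log2 ratios of -0.045, -0.52 and -1.16. At 3 dpi 4 of 30 were lower in members thinned to 2000 UMIs, and also 4 of 30 with the mean of the CPM of each cell. *Dpp4* was 3.54-fold lower (3.27 to 3.85) and *Efhd1* 4.04-fold lower (3.66 to 4.48) at 7 dpi than in Uninjured. *Procr*, the protein C receptor gene, was at 281, 399.7, 158 and 38.8 CPM, 7.25-fold lower (6.55 to 8.06) at 7 dpi, and *Pcolce2*, a procollagen processing enhancer gene, at 641, 479, 373 and 106 CPM, 6.07-fold lower (5.70 to 6.47). *Tubb3*, a tubulin gene, was the only one of the list at least 2-fold higher at 7 dpi. *Wnt2* was above Uninjured instead of below it, at 87.9 CPM (82.1 to 94.1) against 56.2 CPM (54.1 to 58.4) in Uninjured. Since members at 7 dpi had fewer *Pi16* UMIs, the count was repeated in members with at least 10: 3, 5 and 12 genes were then at least 2-fold lower, and *Dpp4* was at 293, 296, 207 and 138 CPM. The interstitial list did not hold in the same way: 10 of 21 were at least 2-fold lower at 7 dpi in all members, but 2 of 21 in those with at least 10 *Pi16* UMIs. *Inmt*, a methyltransferase gene, was at 121, 259.5, 99.3 and 2.89 CPM and was among the 10 genes most strongly lower at 7 dpi.

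Cartilage and bone transcripts made up most of the 10 genes most strongly higher at 7 dpi (*Ibsp*, *Col2a1*, *Col9a1*, *Snorc*, *Hapln1*, *Col9a3*, *Col10a1* and *Panx3*). The 26 genes of the cartilage, bone and tendon list summed to 319.6, 319, 999 and 3547 CPM in the members and 411, 401, 308 and 8579 CPM in leukocytes. Most of those that averaged at least 20 CPM did so only through the 7 dpi library, with 3, 5 and 14 counted at 1, 3 and 7 dpi, so their counts past 2-fold are largely set by that filter and are not given. *Col2a1*, the cartilage collagen gene, was at 0.302, 0.0690, 0.471 and 697 CPM in the members, 1719 CPM in *Pi16*-negative cells and 2798 CPM in leukocytes at 7 dpi. *Ibsp*, bone sialoprotein, was at 0, 0.690, 0 and 586 CPM in the members and 1483 CPM in leukocytes, and 2 members held at least 50% of its UMIs. The 5 chondrocyte markers summed to 0.970, 0.138, 1.21 and 1059 CPM in the members and 0.582, 0.113, 0.178 and 4008 CPM in leukocytes. For *Col2a1*, *Ibsp* and the chondrocyte markers the members' level at 7 dpi was thus below that of leukocytes, and at the other times the marker sums were near 0 in both. The chondrocyte markers were at 2680 CPM in *Pi16*-negative cells at 7 dpi, so the leukocyte group, set by *Ptprc* and *Pdgfra* UMIs alone, lay above them too. Whether it held chondrocytes was not tested. The part of free RNA and of doublets in these levels was not tested. *Thbs4*, a tendon and repair matrix gene, differed: it was at 139, 147, 740.0 and 788 CPM in the members and 49.8, 12.4, 52.7 and 189 CPM in leukocytes, 5.32-fold higher (5.15 to 5.48) at 3 dpi. *Ptn*, a heparin-binding growth factor gene, was at 10.9, 3.38, 40.2 and 543 CPM and *Igf1* at 321, 270.1, 481 and 916 CPM, with 351 and 264 CPM in leukocytes at 7 dpi.

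The same reading was made for every gene that was at least 2-fold higher. At 1 dpi 87 of 192 had a CPM in leukocytes at or above that in the members, at 3 dpi 122 of 311 and at 7 dpi 85 of 303. A leukocyte level below 1/5 of the members' was found for 38, 88 and 4 of them. Most genes higher at 7 dpi thus had a leukocyte level between 1/5 of the members' level and that level itself.

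**Figure D5:**
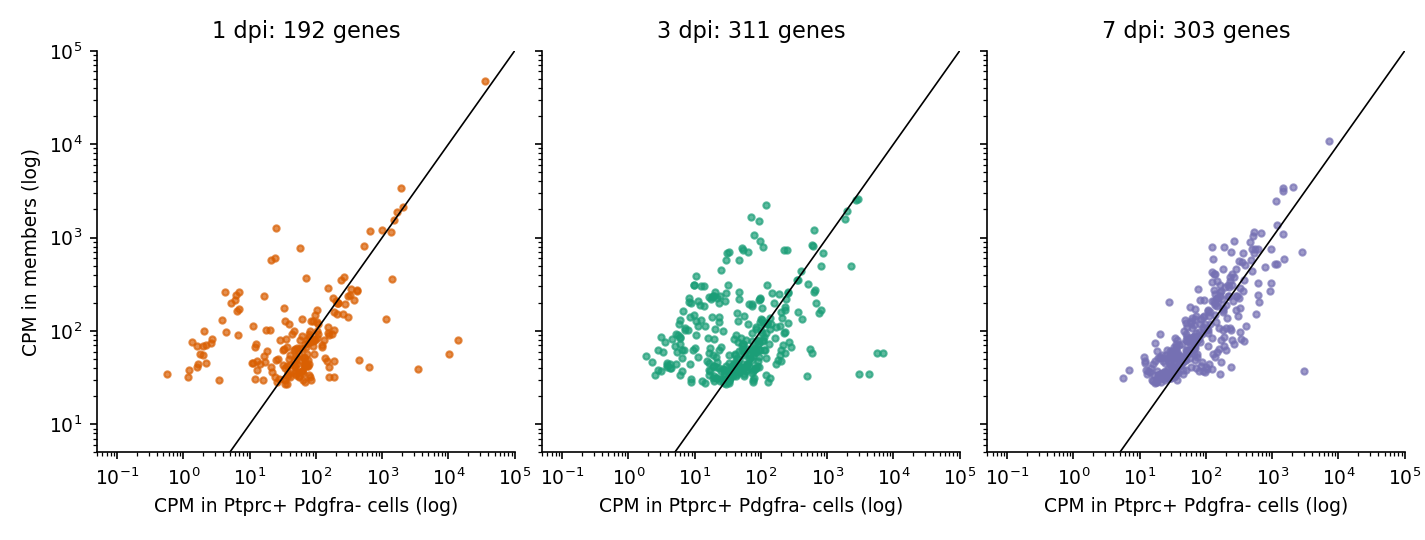
CPM in the members against CPM in leukocytes of the same library for every gene at least 2-fold higher than in Uninjured at 1, 3 and 7 dpi, both axes logarithmic, with leukocyte counts floored at 3 UMIs and the line of equal values drawn. Many genes at 1 and 3 dpi lie far to the left of the line, while at 7 dpi all but 4 genes have a leukocyte level of at least 1/5 of the members'.

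The 10 largest ratios at 1 dpi included *Chil3*, *Ltf*, *Elane*, *Ighg1* and *Ighg2c*, best known from blood cells, and those at 3 dpi *Elane*, *Epx*, *Camp*, *Krt5* and *Krt15*. Erythroid markers summed to 234, 124, 120 and 19.9 CPM in the members and 256, 17.0, 5.46 and 41.2 CPM in *Pi16*-negative cells. The source of these transcripts was not tested. Among the largest ratios several rested on a few cells. *Igkc*, an immunoglobulin light chain gene, was at 5.76, 39.6, 492 and 749 CPM in the members, but 1 member held 79.1% of its UMIs at 3 dpi and 1 member 97.2% at 7 dpi. The eosinophil granule gene *Prg2* had 98.2% of its 3 dpi UMIs in 1 member. *Ccl21a*, at 12.7, 0.0690, 0.202 and 16.1 CPM and so among the genes lower at 1 and 3 dpi, had 97.5% of its Uninjured UMIs in 1 member. By contrast *Isg15* had UMIs in 47.4% of the 1 dpi members and at most 1.62% in any of them. *Postn* had UMIs in 96.6% of the 7 dpi members, but also in 95.5% of *Pi16*-negative cells and 58.9% of leukocytes there.

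Clock and immediate early genes also separated the libraries. *Dbp*, a clock output gene, was at 122, 5.94, 4.11 and 39.7 CPM and *Nr1d1*, a clock repressor gene, at 113, 4.004, 5.18 and 64.6 CPM, while *Arntl*, the activator of the same loop, was at 11.9, 46.0, 37.8 and 14.7 CPM. *Dbp* and *Nr1d1* were lowest and *Arntl* highest at 1 and 3 dpi. The *Pi16*-negative cells had the same order for *Dbp*, at 132, 6.43, 2.92 and 37.2 CPM. The hours at which muscles were taken are not given in the sources used here. Of 19 immediate early genes, 3, 7 and 12 were at least 2-fold lower at 1, 3 and 7 dpi. *Fos* was at 6634, 2997, 1870 and 2245 CPM in the members and at 7449, 3551, 2819 and 3426 CPM in leukocytes, both highest in Uninjured.

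The pathway of BMP ligands, to which the transgene product belongs, is described by ligands, receptors and targets. Of 12 measured genes, 0, 0 and 1 were at least 2-fold higher and 0, 1 and 2 lower at 1, 3 and 7 dpi, beside the shares of all genes given above. The ligand genes *Bmp4* and *Bmp2* were at 80.2, 62.3, 49.9 and 33.5 CPM and 123, 129, 43.9 and 14.9 CPM, both lowest at 7 dpi. *Bmp4* was 2.39-fold lower (2.14 to 2.69) and *Bmp2* 8.27-fold lower (7.01 to 9.82) at 7 dpi than in Uninjured. The receptor gene *Bmpr1a* was at 54.5, 65.4, 58.0 and 54.5 CPM. The target gene *Id1* was at 19.7, 12.4, 27.9 and 47.0 CPM, 2.39-fold higher (2.13 to 2.67) at 7 dpi, and *Id3* at 622, 312, 515 and 499.9 CPM. The antagonist gene *Fst*, which encodes follistatin, was at 324, 230.0, 172 and 165 CPM. Of secreted growth factors and Wnt regulators, 6 of 18 were at least 2-fold lower at 1 dpi, 5 of 19 were higher and 4 lower at 3 dpi, and 6 of 21 were higher and 5 lower at 7 dpi. Of adipogenic genes 0 of 4, 0 of 4 and 1 of 5 were higher and 0, 2 and 2 lower at 1, 3 and 7 dpi, and of circadian clock genes 2 of 11, 2 of 11 and 0 of 10 were higher and 5, 6 and 3 lower. Of complement genes 2 of 8, 1 of 8 and 1 of 8 were higher and 0, 1 and 3 lower.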

How the data were processed

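Per the labels, reads of the 10x libraries were demultiplexed, mapped with STAR and counted by the authors with Cell Ranger 5.0.0, with reads down-sampled as required, and the submitters' processing notes name mm10 and Seurat 3.1.1. The deposited values are raw UMI counts per gene and cell (32285 gene IDs, summed to 32245 symbols, of which 32235 IDs matched GENCODE M21); no filtered cell annotation was used here.

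The members and gene lists were chosen with earlier results of these data known. UMIs were summed per library and cell group. Cell group contrasts used edgeR 4.0.16 (TMM, quasi-likelihood, library as a block, rule genes left out, Benjamini-Hochberg) in R 4.3.3, and DESeq2 1.42.0 was an alternative; both kinds of calculation were tested on simulated data. Whether the 4 libraries are from separate animals beyond the pooled muscles is not stated, so p-values measure the spread between libraries. As each library is another time point, that spread includes differences between time points. Time points (1 library each) were compared as CPM ratios with exact conditional binomial intervals and a floor of 3 UMIs. Shares have Clopper-Pearson intervals, for counting error only. Doublet scores came from Scrublet in scanpy 1.11.5; members were kept whatever their score, and the highest 7.5% were left out as an alternative.

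Named genes were the 10 with the largest ratio in each direction at each time (at least 50 UMIs in the higher library), the 10 with the largest fold change in each direction among edgeR calls with the same direction in all libraries, the 10 with the largest variance over mean, and the genes of 15 lists. The 20 CPM ranking, the keratinocyte list and the form with at least 10 *Pi16* UMIs were added after the data were seen.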

Additional observations from a re-analysis of the deposited data

Results flagged for a closer look

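The summed cytokine and chemokine genes lay below the *Pi16*-negative cells at 1 dpi and above them at 7 dpi: the log2 ratio of the members to the *Pi16*-negative cells was -0.90 at 1 dpi and 0.55 at 7 dpi. The members' sums were 4997, 4503, 6547 and 3251 CPM and those of the *Pi16*-negative cells 9097, 8383, 7574 and 2214 CPM at Uninjured, 1, 3 and 7 dpi. *Cxcl14* was at 1035, 734, 1315 and 594 CPM in the members and 4493, 3167, 2005 and 459 CPM in the *Pi16*-negative cells. With 1 library per time point the difference between libraries was not tested.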

How the results depend on the processing

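The order of the members' share over the 4 libraries held under all forms of the rule. As percentages of *Pdgfra*+ cells at Uninjured, 1, 3 and 7 dpi, the shares were 60.4, 51.3, 39.95 and 29.5 with at least 1 *Pi16* UMI, 42.7, 33.9, 21.1 and 10.7 with at least 3, 31.5, 19.98, 11.1 and 3.08 with at least 10 (added after seeing the data) and 28.9, 22.7, 17.2 and 6.72 with thinned cells. The Uninjured share was 46.8 without the highest Scrublet scores, and the 1 dpi share 41.6 with at most 5% mitochondrial UMIs. Genes past 2-fold at 1, 3 and 7 dpi numbered 305, 504 and 633, and 157, 266 and 349 with a mean CPM of at least 50 and 680, 1078 and 1306 with at least 5, where more or fewer genes entered. Leaving out each library moved the calls between 225 and 1460 against *Pi16*-negative cells, 1341 and 2973 against *Col15a1* cells, and 935 and 1535 against *Gdf10* and *C7* cells. Without the library block the calls were 1 (*Sema3c*), 75 and 167, with 755 genes at an unadjusted p under 0.05 in the first. Against *Pi16*-negative cells DESeq2 called 923 genes higher and 670 lower. In members with at least 10 *Pi16* UMIs the log2 value changed sign for *Il11* against *Pi16*-negative cells (-0.54), for *Mcm3* (-0.076) and *Rrm2* (-0.0080) against *Col15a1* cells, for *Acta2* (-0.028), *Fmod* (-1.62) and *Inhba* (-0.71) at 3 dpi, and for *Hmcn2* (0.15) and *Hsd11b1* (0.074) at 7 dpi. The cause was not tested. The cell group contrasts were paired within libraries by the block. For time points no paired analysis was possible because each is 1 library. The members' summed UMIs were fewest at 7 dpi (9676321) and their median UMIs per cell lowest at 3 dpi (7571.5).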
